A study of Mus musculus with 8 samples.

Results

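miR-143 and miR-145a are processed from a pair of neighbouring hairpins, and each hairpin gives a mature miRNA from its 5′ arm (5p) and from its 3′ arm (3p). The 4 mature miRNAs mmu-miR-143-3p, mmu-miR-143-5p, mmu-miR-145a-5p and mmu-miR-145a-3p (mmu for mouse, left out below) were taken by name from 5 tables of mouse small RNA sequencing, in which 1978 mature miRNAs were listed in all. The tables came from a study of PERK, a kinase of the endoplasmic reticulum that senses unfolded protein, and of ATF4, the transcription factor translated when PERK is active, in the differentiation of myoblasts. Between them the tables held 8 libraries, 1 for each condition, so that none of the differences below has a replicate check.

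C2C12 is a mouse skeletal myoblast line that fuses into myotubes when serum is lowered. C2C12 cells carried a negative control hairpin (shNC) or a hairpin directed at Perk (shPerk), delivered with lentivirus and selected with puromycin, and each was sequenced at day 0 in growth medium and at day 3 in differentiation medium. Another pair of C2C12 libraries came from cells with a vector that carried the ATF4 coding sequence behind the EF1α promoter (ATF4) or with the vector control (vector). No time point is given for them in the labels, and the paper describes them as proliferating in growth medium. The last pair came from P19, a mouse embryonal carcinoma line, with shNC or shPerk, and the labels give neither a day nor a state of differentiation. The mRNA of Perk or Atf4 is not measured in small RNA libraries, so neither the knockdown nor the overexpression was checked here.

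The hairpins of miR-143 and miR-145 are transcribed together from the locus of the long non-coding RNA Carmn, which the factors SRF and myocardin activate in smooth muscle. The cluster is known as a marker of smooth muscle and other mesenchymal cells and is low in pluripotent cells, where miR-145 is known to repress the stem cell factors OCT4, SOX2 and KLF4. In most cells the 3p arm of miR-143 and the 5p arm of miR-145 are the guides, the strands loaded into Argonaute to repress mRNAs, and the other arm of each is the passenger strand, which is mostly degraded.

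For comparison, the miRNAs whose levels across the 6 C2C12 libraries lay nearest to those of the guides miR-143-3p and miR-145a-5p were picked out, as described further on. The mature sequences of 5 of them are shown, 5′ to 3′, from RefSeq on GRCm38.p6, to let their seeds be compared. Capitals mark the seed, bases 2 to 8, which pairs with target mRNAs. These 5 seeds were all different, and miR-598-3p, also among the nearest, is named without its sequence.
miR-1839-5p: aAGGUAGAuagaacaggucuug
miR-194-5p: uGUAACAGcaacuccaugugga
miR-30a-5p: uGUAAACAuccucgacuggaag
miR-192-5p: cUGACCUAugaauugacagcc
miR-503-3p: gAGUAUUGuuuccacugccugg

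The authors deposited raw read counts for the 4 C2C12 hairpin libraries, with totals between 8800977 and 11993448 reads on miRNAs, and RPM, the share of miRNA reads scaled to a fixed total, for the other 4 libraries. Counts were divided by the library total to give CPM on the same scale. The 4 skeletal muscle miRNAs used as markers (miR-1a-3p, miR-133a-3p, miR-133b-3p and miR-206-3p) summed to 19165 CPM in shNC and 3839 CPM in shPerk cells at day 0, to 88480 and 24312 CPM at day 3, and to 2467 and 3790 RPM in vector and ATF4 cells. Of 9 miRNAs of pluripotent cells, such as miR-294-3p and miR-302a-3p, the summed level was at most 0.618 CPM in the 4 hairpin libraries of C2C12 cells and 210416 RPM in P19 shNC cells. The 3 blood miRNAs used as markers (miR-142a-3p, miR-451a and miR-223-3p) summed to 8.74 CPM in shNC and 234 CPM in shPerk cells at day 0 and to 7.67 and 78.4 CPM at day 3, with miR-223-3p at 0 reads in every hairpin library but shPerk at day 3. They summed to 65.4 RPM in vector and 45.0 RPM in ATF4 cells. By the rule given below, 1 of the 2 tested was called higher in shPerk cells at day 0, and 2 of 2 at day 3. Among all miRNAs, 99 of 602 were called higher at day 0 and 115 of 575 at day 3. In either direction, 34.6% and 41.9% were called. The part of these markers in the differences between shPerk and shNC cells described below was not tested, and in bulk libraries fewer cells of a type cannot be told apart from less RNA per cell.

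In the GENCODE M21 annotation of GRCm38, Mir143 lay on the minus strand of chromosome 18 from 61649196 to 61649258 and Mir145a from 61647825 to 61647894, with 1301 bases between them. Neither hairpin overlapped another gene of that annotation, where the lincRNA Carmn (61649625 to 61665537, minus strand) ended 366 bases upstream of Mir143. The RefSeq annotation of GRCm38.p6 gave Carmn a longer extent, 61645878 to 61665538, and both hairpins lay inside it. Mir145b, a separate gene of similar name, lay on the same chromosome at 69022199 to 69022273 and had 0 or 1 read in each of the 4 hairpin libraries of C2C12 cells.

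Of the 20 possible rows of the members in the 5 tables, 19 were listed, and miR-143-5p was not listed for P19 cells. miR-143-3p was among the most abundant miRNAs of C2C12 cells. At day 0 shNC cells had 283580 reads of it and shPerk cells 161951, at day 3 shNC cells had 475516 reads and shPerk cells 344914, and the other C2C12 pair had 21892 RPM in vector cells and 26736 RPM in ATF4 cells. In these 6 libraries it ranked between 6th and 13th among the miRNAs detected. In CPM the order was shNC at day 3 (39648), shPerk at day 3 (36583), shNC at day 0 (25047) and shPerk at day 0 (18401), and the 95% Clopper-Pearson intervals of these 4 values did not overlap. Such intervals hold the counting error alone and say nothing of the spread between cultures. No molecular identifiers that would tell PCR copies apart are described, so copies may be counted as separate reads and the intervals may be too narrow.

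In P19 cells miR-143-3p had 28.2 RPM with shNC and 118 RPM with shPerk, and it ranked 418 of 686 and 222 of 690 detected miRNAs. The level in the C2C12 libraries was 653 to 1407 times that in P19 shNC cells. For miR-145a-5p the corresponding ratios were 57.2 to 170, and for miR-145a-3p they were 258 to 459. These tables were scaled separately, so the ratios set levels side by side across tables and are not tests.

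**Figure D1:**
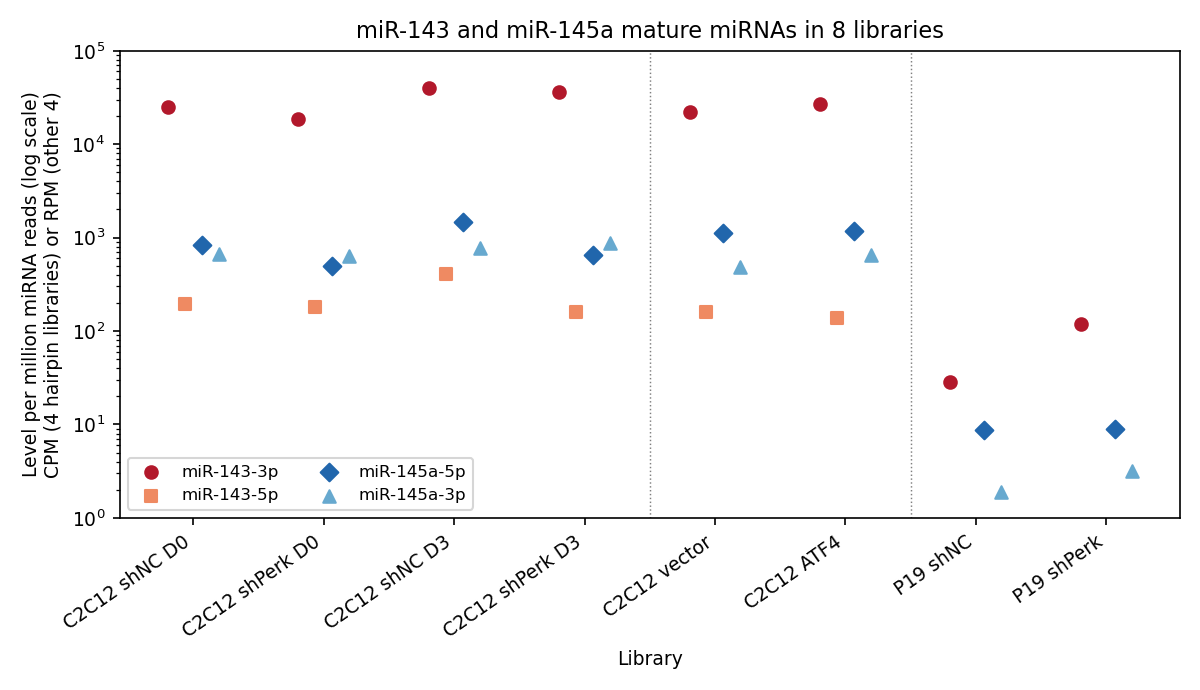
Level of each of the 4 mature miRNAs in each of the 8 libraries on a log axis, in CPM for the 4 C2C12 hairpin libraries and in RPM for the other 4, with 1 point for each miRNA and library. miR-143-3p lies between 18401 and 39648 CPM or RPM in C2C12 cells and at 28.2 and 118 RPM in P19 cells, and miR-143-5p has no point in P19 cells, where it was not listed.

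miR-145a-5p, the guide of the other hairpin, was less abundant than miR-143-3p in every library. It had 9359 reads (827 CPM) in shNC and 4390 reads (499 CPM) in shPerk cells at day 0, and 17799 reads (1484 CPM) in shNC and 6210 reads (659 CPM) in shPerk cells at day 3. Vector cells had 1110 RPM and ATF4 cells 1166 RPM, and the P19 libraries had 8.72 and 8.97 RPM. In CPM, both shPerk libraries of C2C12 cells lay below both shNC libraries. The counting intervals did not overlap (484 to 514 and 642 to 675 CPM against 810 to 844 and 1462 to 1506 CPM). With the TMM factors described below, shPerk cells at day 3 lay above shNC cells at day 0. Their log2 levels, centred on the mean of the 4 hairpin libraries, were 0.05 and -0.24.

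miR-145a-3p, the passenger arm, varied least of the 4. It had 7619 reads (673 CPM) and 5599 reads (636 CPM) in shNC and shPerk cells at day 0, 9329 reads (778 CPM) and 8188 reads (868 CPM) at day 3, and 487 and 646 RPM in vector and ATF4 cells. Its highest level was 1.78 times its lowest over the 6 C2C12 libraries, against 2.15 times for miR-143-3p and 2.98 times for both miR-143-5p and miR-145a-5p. In P19 cells it was close to the lowest value listed, 1.89 RPM with shNC and 3.14 RPM with shPerk.

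miR-143-5p, the passenger arm of miR-143, had 2229 reads (197 CPM) and 1590 reads (181 CPM) in shNC and shPerk cells at day 0 and 4923 reads (410 CPM) and 1505 reads (160 CPM) at day 3. Vector cells had 159 RPM and ATF4 cells 138 RPM. The shNC library at day 3 stood above the other 5, the counting intervals of the day 0 pair overlapped (189 to 205 CPM and 172 to 190 CPM), and the RPM of vector cells lay inside the interval of shPerk cells at day 3 (152 to 168 CPM).

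The first comparison asked how the cluster changed as control myoblasts differentiated. All 4 members rose from day 0 to day 3 in shNC cells. With the scaling used here, 3 of them passed the limit for a call, both guides among them. miR-143-3p passed it under that scaling alone. In each comparison of count tables, library sizes were scaled with TMM factors, which assume that most miRNAs do not change, and calls needed both a log2 fold change beyond 1 and a Benjamini-Hochberg adjusted p under 0.05 from an exact binomial test, two-sided, of the reads. Such a test compares the pair of libraries and not the conditions behind them. The log2 fold change was largest for miR-143-5p, which rose by 1.42 (95% counting interval 1.35 to 1.49), miR-145a-5p by 1.20 (1.17 to 1.24) and miR-143-3p by 1.02 (1.01 to 1.03). The log2 fold change of miR-145a-3p was 0.57 (0.52 to 0.61), under the limit. Thus 3 of 4 members were called higher, against 15.0% called higher and 26.0% called in all among the 593 miRNAs tested, and the median log2 fold change was 1.11 for the members and 0.05 for all miRNAs.

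The size of these values depended on the scaling. With library totals in place of TMM factors the median of all miRNAs moved from 0.05 to -0.30, miR-143-3p to 0.66 and miR-145a-5p to 0.84, and 1 member was called. miR-143-3p also lay under the limit with DESeq2's median of ratios (0.97) and upper quartile factors (0.94), and was not called where the biological coefficient of variation was taken as 0.2, so that 2 members were called in each of these cases. Each scaling shifts all miRNAs of a pair alike, and measured from the median of all miRNAs the change was 0.97 for miR-143-3p, 1.15 for miR-145a-5p and 0.51 for miR-145a-3p. With a coefficient of 0.4 in edgeR's exact test, 0 members and 7 miRNAs in all were called.

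In shPerk cells the same step of differentiation gave another order among the members. miR-143-3p was the only member called: it rose by a log2 fold change of 1.44 (95% counting interval 1.43 to 1.45), from 161951 to 344914 reads. With TMM factors both miR-145a arms had values just under the limit, 0.85 (0.79 to 0.90) for miR-145a-5p and 0.90 (0.85 to 0.94) for miR-145a-3p. With library totals these values were 0.40 and 0.45. miR-143-5p, which led the rise in shNC cells, had a log2 fold change of 0.27 (0.17 to 0.37), and its sign turned with library totals (-0.18). The count of 1 in 4 called higher stood against 16.8% of 573 miRNAs (29.3% were called in all), and with library totals miR-143-3p lay just under the limit (0.99) and 0 members were called.

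The knockdown was compared next, within each day. At day 3, the 2 guide arms did not go together in shPerk cells. miR-145a-5p had a log2 fold change of -0.91 (95% counting interval -0.95 to -0.86) against shNC cells, which is 1.87-fold lower and under the limit, and miR-143-3p had 0.15 (0.14 to 0.16). The passenger arms differed in the opposite way. miR-143-5p fell by 1.10 on the log2 scale (interval -1.18 to -1.01), from 4923 to 1505 reads, and was called, and miR-145a-3p had a log2 fold change of 0.42 (0.38 to 0.47). The 1 member called lower of 4 stood against 21.9% of 575 miRNAs called lower and 41.9% called in either direction, so that 1 of 4 does not set the members apart from all miRNAs.

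With library totals the median over all miRNAs at day 3 moved from -0.05 to -0.32, miR-145a-5p passed the limit (-1.17) and miR-143-3p changed sign (-0.12). Measured from the median of all miRNAs, which takes out any shift by the scaling, the values were -1.04 for miR-143-5p, -0.85 for miR-145a-5p, 0.20 for miR-143-3p and 0.48 for miR-145a-3p. An assumed coefficient of variation of 0.4 left 0 members called and 46 of 575 miRNAs.

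At day 0, none of the 4 members was called between shPerk and shNC cells, against 34.6% of the 602 miRNAs tested. miR-145a-5p had the lowest log2 fold change of the members, -0.57 (95% counting interval -0.62 to -0.52), followed by miR-143-3p at -0.29 (-0.30 to -0.28). The passenger arms had 0.08 (0.03 to 0.13, miR-145a-3p) and 0.03 (-0.06 to 0.13, miR-143-5p), and both values changed sign with library totals (-0.08 and -0.12). The difference between the knockdown's log2 fold changes at day 3 and at day 0 was 0.44 (0.42 to 0.45) for miR-143-3p, -1.13 (-1.26 to -1.01) for miR-143-5p, -0.34 (-0.40 to -0.27) for miR-145a-5p and 0.35 (0.28 to 0.41) for miR-145a-3p, with approximate intervals from counting alone. The 4 libraries used for the 2 differentiation and 2 knockdown comparisons are shared between them, so these comparisons are not independent.

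**Figure D2:**
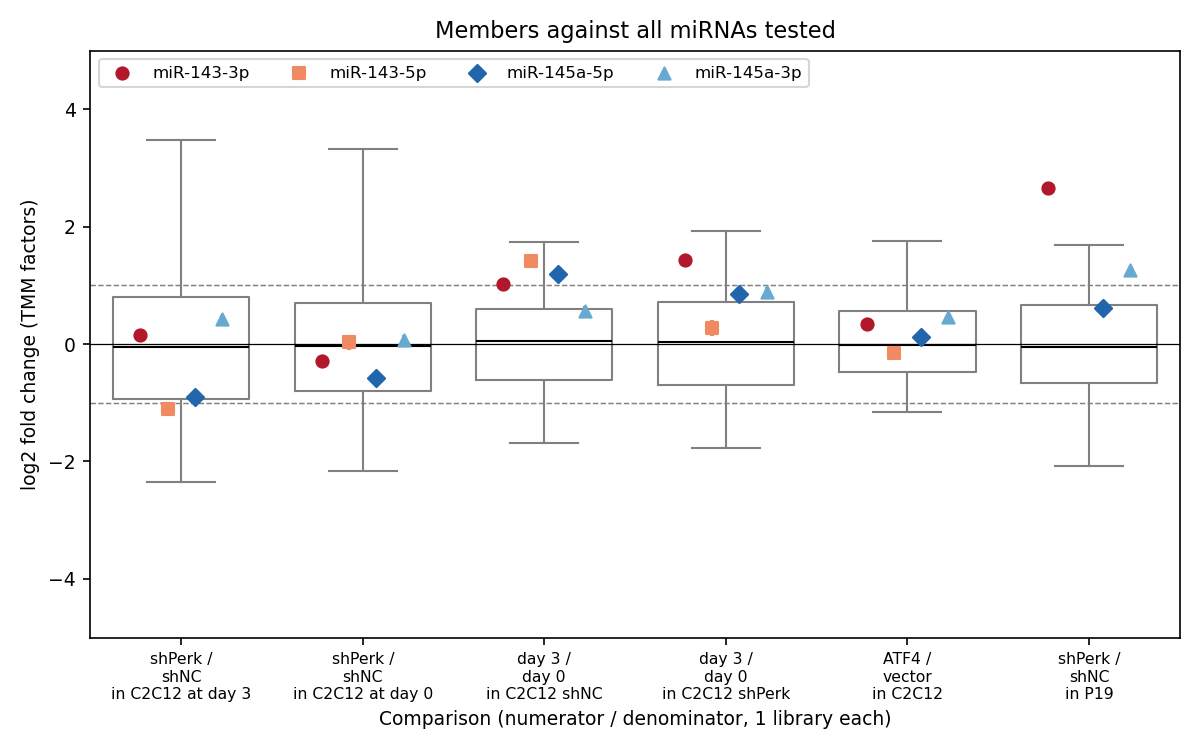
Log2 fold changes of the members in the 6 comparisons (points, with 95% counting intervals as lines where counts were deposited), over boxes of all miRNAs tested with whiskers at the 5th and 95th percentiles. Dashed lines mark the limit of 1 in each direction: all 4 members lie above 0 from day 0 to day 3 (miR-143-5p in shPerk cells turns to -0.18 with library totals), and miR-145a-5p lies at -0.57 and -0.91 in the knockdown comparisons of C2C12 cells.

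The ratio of reads between members of the same library needs no scaling between libraries. In shNC cells the 5p arm of miR-145a outnumbered its 3p arm, by a ratio of 1.23 (95% interval 1.19 to 1.27) at day 0 and 1.91 (1.86 to 1.96) at day 3. In shPerk cells the order was turned, with ratios of 0.784 (0.754 to 0.816) at day 0 and 0.758 (0.734 to 0.784) at day 3. The vector and ATF4 libraries had 2.28 and 1.81, and the P19 libraries 4.61 with shNC and 2.86 with shPerk. Of the 8 libraries, the 2 shPerk libraries of C2C12 cells were thus the ones in which the passenger arm was the more frequent.

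The 5p to 3p ratio of miR-145a in shPerk cells was 0.638 times (exact 95% interval 0.607 to 0.671) that in shNC cells at day 0 and 0.398 times (0.381 to 0.414) at day 3. From day 0 to day 3 the ratio changed 1.55-fold (1.49 to 1.62) in shNC cells and 0.967-fold (0.918 to 1.02) in shPerk cells, where the interval included 1. In P19 cells, where the 3p arm stood near the detection limit of the table, the change was 0.619-fold, and ATF4 against vector gave 0.792-fold, with no interval for RPM.

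The ratio of miR-143-3p to its passenger miR-143-5p was 127 (122 to 133) in shNC and 102 (96.9 to 107) in shPerk cells at day 0. At day 3 it was 96.6 (93.9 to 99.4) in shNC and 229 (218 to 241) in shPerk cells. Vector and ATF4 cells had 137 and 194. The shPerk library at day 3 had the highest of these 6 ratios, 2.37 times (2.24 to 2.52) that of shNC cells on the same day, while at day 0 the knockdown gave 0.801 times (0.750 to 0.855), a difference in the other direction.

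Read against each other, the 2 guides kept no fixed proportion. There were 30.3 reads of miR-143-3p for each read of miR-145a-5p in shNC and 36.9 in shPerk cells at day 0, and 26.7 and 55.5 at day 3. The ratio in shPerk cells was 1.22 times (1.17 to 1.26) that in shNC cells at day 0 and 2.08 times (2.02 to 2.14) at day 3. ATF4 and vector cells had 22.9 and 19.7. In P19 cells the ratio was far lower, 3.23 with shNC and 13.2 with shPerk.

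**Figure D3:**
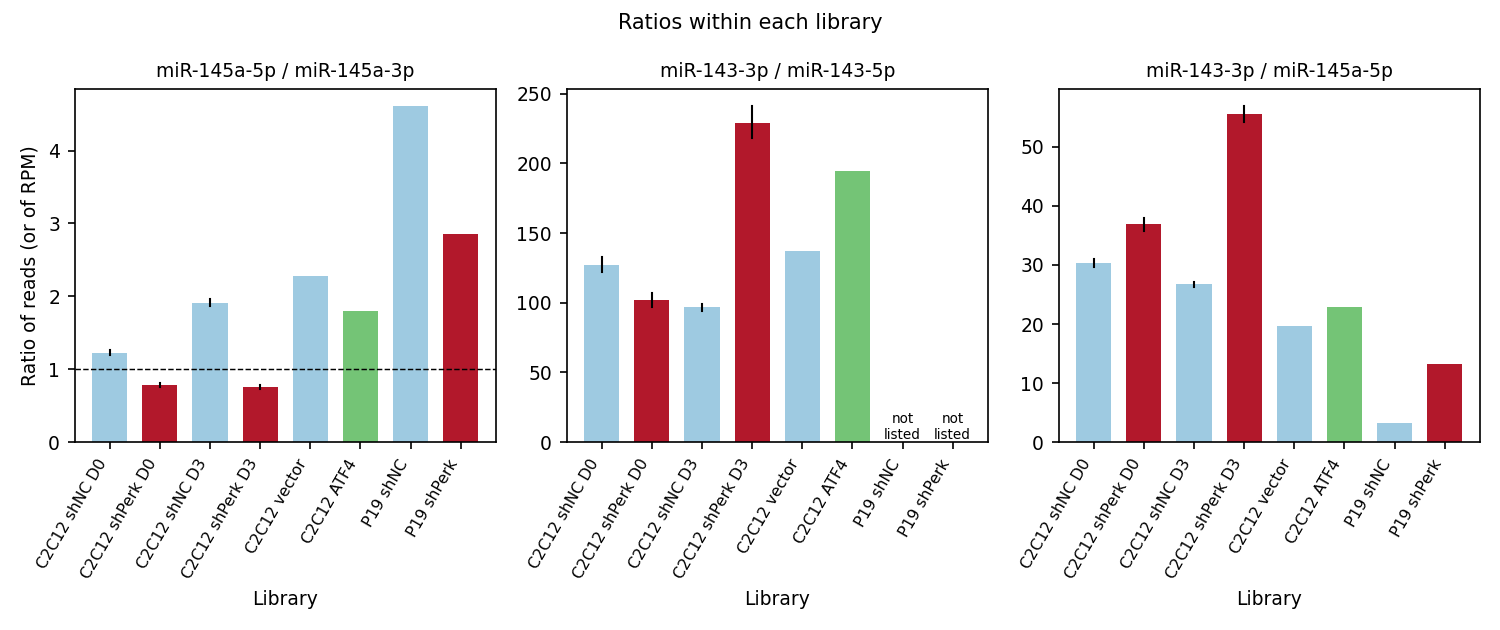
Ratios within each library of miR-145a-5p to miR-145a-3p, of miR-143-3p to miR-143-5p and of miR-143-3p to miR-145a-5p, with 95% counting intervals as black lines where counts were deposited (red bars, shPerk; blue, shNC or vector; green, ATF4). The dashed line marks a ratio of 1, below which miR-145a lies only in the shPerk libraries of C2C12 cells (0.784 and 0.758), and the highest ratios of the other panels (229 and 55.5) belong to shPerk cells at day 3.

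To place these arm ratios, the log2 change of the 5p to 3p ratio was computed over hairpins, a step added after seeing the data. It took in the 109 hairpins with at least 20 reads on each arm in all 4 hairpin libraries. At day 3, knockdown gave -1.33 for miR-145a and -1.25 for miR-143, the 10th and 13th lowest of 109, with a median of -0.03 and a middle 50% from -0.80 to 0.60. In all, 20 of the 109 hairpins (18.3%) changed by -1 or less, so such a change was not particular to the cluster. At day 0 the values were -0.65 for miR-145a (27th lowest) and 0.32 for miR-143 (92nd lowest) around a median of -0.15.

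From day 0 to day 3 in shNC cells both hairpins moved towards the 5p arm, by 0.64 for miR-145a (100th lowest of 109) and 0.40 for miR-143 (86th). In shPerk cells miR-145a had -0.05 (50th) and miR-143 had -1.17 (7th lowest). With ATF4, among 98 hairpins with at least 5 RPM on each arm, miR-143 had -0.50 and miR-145a -0.34, the 9th and 19th lowest. The direction for miR-143 thus differed between the days of knockdown, and that for miR-145a was towards the 3p arm in both. Of the 109 hairpins, 69 (63.3%) moved towards the 3p arm with knockdown at day 0 and 55 (50.5%) at day 3, so this direction was common.

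**Figure D4:**
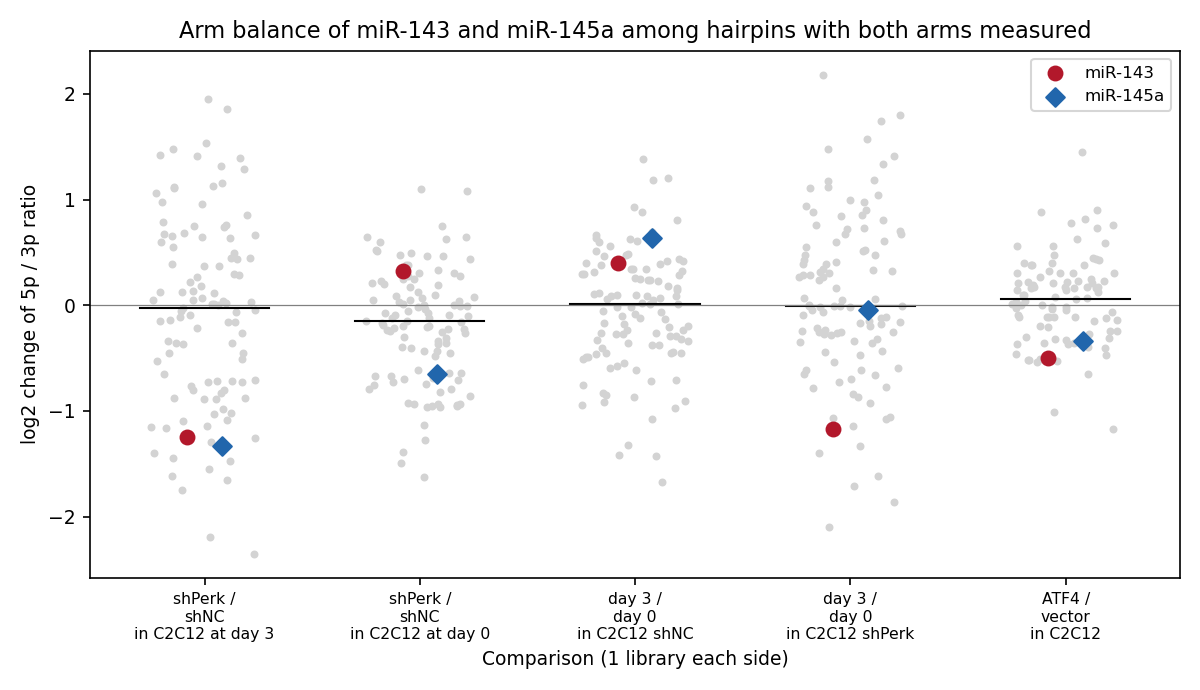
Log2 change of the 5p to 3p ratio of each hairpin in 5 comparisons (grey points, 109 hairpins in the hairpin libraries and 98 in the ATF4 pair; short black lines, medians), with miR-143 in red and miR-145a in blue. At day 3 of knockdown both lie low, at -1.25 and -1.33, within a wide spread of other hairpins.

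ATF4 was expressed in C2C12 cells to ask which miRNAs follow the transcription factor downstream of PERK. None of the 4 members was called between the ATF4 and vector libraries, where 22.6% of 605 miRNAs had a log2 fold change beyond 1. Values at 0 were set to 1 RPM and no test on reads was made, so the call rests on the fold alone. The log2 fold changes were 0.47 for miR-145a-3p, 0.35 for miR-143-3p, 0.13 for miR-145a-5p and -0.15 for miR-143-5p. With upper quartile factors the median of all miRNAs moved from -0.01 to -0.38 and both guides changed sign (-0.03 for miR-143-3p and -0.24 for miR-145a-5p). The skeletal muscle miRNAs used as markers were called higher in 2 of 4 cases in the same pair.

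In P19 cells miR-143-3p was higher with the hairpin against Perk. miR-143-3p had 28.2 RPM with shNC and 118 RPM with shPerk, a log2 fold change of 2.66 with TMM factors, the 9th highest of 696 miRNAs, and of 2.06 with library totals. miR-145a-3p was called as well, with 1.26, but it rested on 1.89 and 3.14 RPM, which the steps of the RPM values put at about 15 and 14 reads. miR-145a-5p had 0.62, from 8.72 and 8.97 RPM, or about 69 and 40 reads, and 0.04 with library totals. The 2 of 3 listed members called higher stood against 17.1% of 696 miRNAs called higher and 34.6% called in all.

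The call of miR-143-3p in P19 cells held under all alternatives run, and that of miR-145a-3p was lost with library totals (0.70) and with a prior count of 2 (0.73), which is the value added before logarithms. Library totals moved the median of all miRNAs from -0.06 to -0.63. In the same pair, 6 of 9 pluripotency miRNAs, 5 of 5 epithelial miRNAs of the miR-200 family, 3 of 3 skeletal muscle miRNAs listed and 1 of 2 endothelial miRNAs (the arms of miR-126a) were called higher as well. The summed level of the pluripotency miRNAs was 210416 RPM with shNC and 444734 RPM with shPerk, that of the epithelial miRNAs 317 and 1345 RPM, that of the skeletal muscle miRNAs 34.5 and 96.9 RPM, and that of the endothelial miRNAs 1244 and 1922 RPM. The part of these cell type markers in the change of miR-143-3p was not tested.

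A list of 20 other miRNAs of mesenchymal cells was set beside the cluster. It took in the miR-199 and miR-214 cluster, the miR-29 family, miR-21a-5p, miR-100-5p, miR-99a-5p, miR-125b-5p and members of the miR-221 and miR-23b clusters, with miR-26a-5p, miR-152-3p and miR-22-3p. From day 0 to day 3 of shNC cells, 4 list members were called higher and 0 lower, where 15.0% of all miRNAs were called higher. The median of the 20 was 0.53 on the log2 scale, below that of the miR-143 and miR-145a members. miR-199b-5p had the largest value of those named, 2.31 (2.14 to 2.49), and miR-152-3p had 1.70 (1.66 to 1.73). In shPerk cells 3 were called higher and 2 lower over the same days, against 29.3% of all miRNAs called, with miR-99a-5p at 1.91 and miR-222-3p at -1.34.

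Under knockdown at day 3, 4 of the 20 mesenchymal miRNAs were called higher and 1 lower, against 41.9% of all miRNAs called, among them miR-99a-5p at 2.47 (2.45 to 2.48) and miR-26a-5p at 1.39 (1.39 to 1.40). At day 0, 3 were called higher and 0 lower, against 34.6% of all miRNAs called, with miR-222-3p at 1.52 (1.50 to 1.54) and miR-23b-3p at 1.29 (1.27 to 1.32). The medians were 0.14 and 0.61, against -0.38 and -0.13 for the 4 members of the cluster. With ATF4 0 of the 20 were called, against 22.6% of all miRNAs, with a median of 0.29. In P19 cells 4 of 19 were called higher and 1 lower, against 34.6% of all miRNAs called, with miR-199a-5p at 1.33 and miR-199a-3p at 1.30.

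The likeness of patterns was measured as the root mean square difference of log2 levels over the 6 C2C12 libraries, with the 4 hairpin libraries and the ATF4 pair each centred on their own mean, for 309 miRNAs. Nearest to miR-143-3p were miR-1839-5p (0.14), miR-194-5p (0.22), miR-30a-5p (0.24), miR-145a-3p (0.24) and miR-192-5p (0.25), where the median over all 309 was 0.65. Of the other members, miR-145a-5p was 15th at 0.33 and miR-143-5p 41st at 0.43. The nearest miRNA of the cluster to the guide of one hairpin was thus the passenger of the other.

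The same held for miR-145a-5p. The miRNAs nearest to it were miR-598-3p (0.20), miR-194-5p (0.21), miR-1839-5p (0.21), miR-143-5p (0.21) and miR-503-3p (0.23), against a median of 0.69. miR-143-3p was 10th and its own passenger miR-145a-3p was 46th at 0.45. miR-194-5p and miR-1839-5p were on both lists, and their seeds, printed above, differ. The distances rest on 6 libraries, 1 for each condition, and are descriptions.

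**Figure D5:**
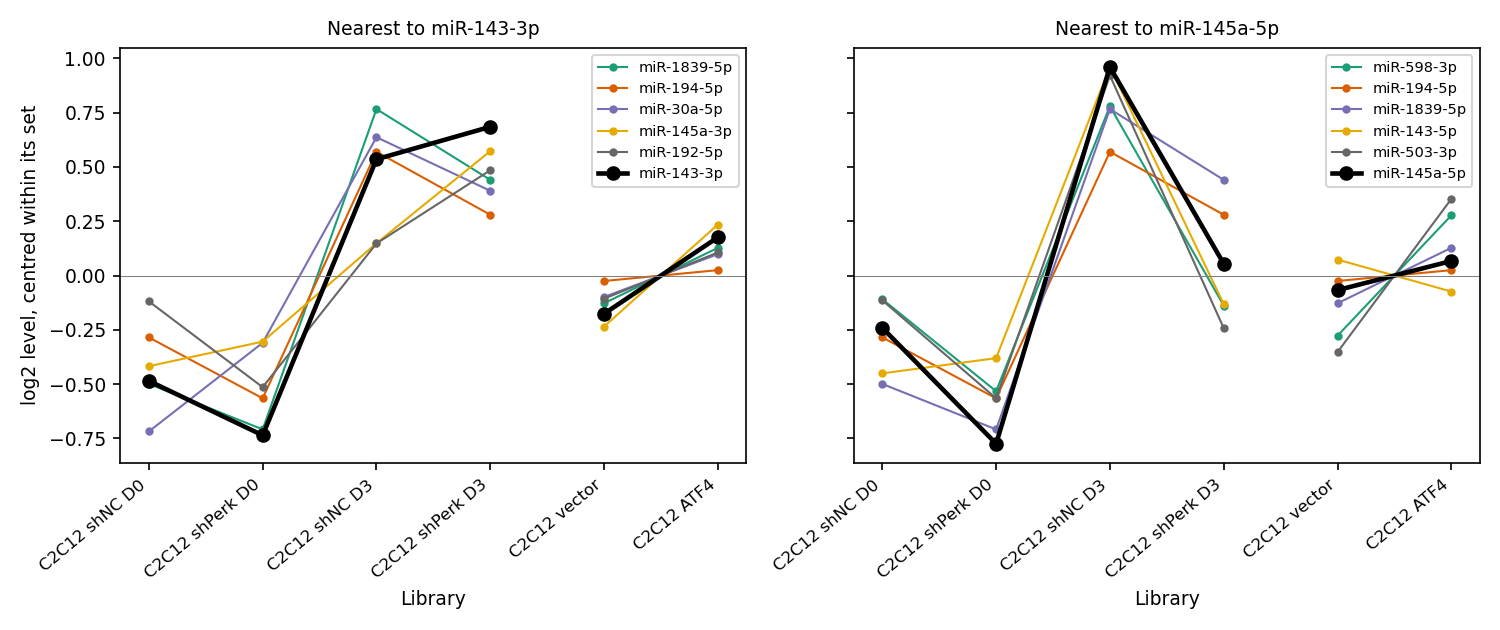
Log2 level of miR-143-3p and of miR-145a-5p (black) and of the 5 miRNAs nearest to each (coloured) in the 6 C2C12 libraries, centred within the 4 hairpin libraries and within the vector and ATF4 pair. With TMM factors both guides are highest on day 3, miR-143-3p in shPerk cells (0.68 against 0.54 in shNC cells, an order that is the reverse of that in CPM) and miR-145a-5p in shNC cells (0.96), and both are lowest in shPerk cells at day 0 (-0.74 and -0.77).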

How the data were processed

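Small RNA libraries of 8 mouse cell samples, 1 for each group, were made for the authors by a company: linkers were added at either end of the RNA, the cDNA was amplified, and reads were annotated with bowtie on mm10 (GRCm38, per the labels). The version of bowtie, the release of the miRNA annotation and how multiply matching reads were counted are not given in the sources used here. For the C2C12 shNC and shPerk libraries the authors deposited raw read counts per mature miRNA (3 tables; the 2 libraries that stand in 2 tables had identical values in both). For the other 2 tables the authors deposited RPM, scaled to miRNA reads, with no value between 0 and 1. The log2 fold changes and p-values that the authors deposited, and the q-values in their RPM tables, were not used.

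A miRNA was tested where it reached 1 CPM in either library of a pair (all listed miRNAs for RPM). TMM factors came from every miRNA, with a prior count of 0.125, and edgeR was used without a replicate-based dispersion, as groups have 1 library. Calls needed a log2 fold change beyond 1 and, for counts, an adjusted p under 0.05. For RPM, zeros were set to 1 RPM. Low RPM values were near-whole multiples of a step (94.8% to 97.9% within 0.0055 RPM), which gave the approximate reads, but no count test was run on them. Intervals are 95% Clopper-Pearson intervals, or exact conditional intervals for changes of a ratio. The named miRNAs are the 4 members, the 5 nearest in pattern to each guide (mean of at least 10 CPM or RPM, 1 added before log2) and list members with the largest called changes. The members and lists were chosen with earlier results of these data known. RefSeq mature sequences were matched for the nearest miRNAs, and 0 of the 4 members matched.

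Libraries were simulated from the mean levels of the day 3 pair of shPerk and shNC. They held counting noise alone and planted log2 changes of 2 in either direction. There, 195 of 200 changed miRNAs (97.5%) were recovered, and 2 of 349 unchanged miRNAs were called falsely. Variation between cultures and changes near the limit of 1 were not simulated, so these rates do not carry over to the calls of the members. The alternatives were library totals, DESeq2's median of ratios or upper quartile factors, other filters, a prior count of 2, zeros at 0.5 RPM and assumed coefficients of variation of 0.1, 0.2 and 0.4. The comparison of arm balance over all hairpins was added after seeing the data, as was its alternative of at least 100 reads on each arm. Tools were Python 3.11.15 (numpy 2.4.6, pandas 2.3.3, scipy 1.17.1, matplotlib 3.10.9) and R 4.3.3 (edgeR 4.0.16, DESeq2 1.42.0).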

Additional observations from a re-analysis of the deposited data

Results flagged for a closer look

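The knockdown's log2 fold change had opposite signs in pairs of cell states for 3 members, and none of these differences was tested over samples, since each group has 1 library. miR-143-3p had -0.29 in C2C12 cells at day 0, 0.15 in C2C12 cells at day 3 and 2.66 in P19 cells. miR-143-5p had 0.03 at day 0 and -1.10 at day 3 in C2C12 cells. miR-145a-5p had -0.57 at day 0 and -0.91 at day 3 in C2C12 cells and 0.62 in P19 cells. The signs of the 2 small values, 0.15 and 0.03, turned with library totals or upper quartile factors. The 0.62 of miR-145a-5p in P19 cells came from 8.72 RPM with shNC and 8.97 RPM with shPerk, and was 0.04 with library totals.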

How the results depend on the processing

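Counting noise is small for these miRNAs in C2C12 cells, where they are abundant. The limits there lie in the scaling and in the absence of replicates. In P19 cells counting noise is larger for miR-145a-5p (about 69 and 40 reads) and miR-145a-3p (about 15 and 14 reads). No paired analysis was possible because each group has 1 library. With library totals, 2 members were called in the knockdown at day 3 (also 2 with upper quartile factors), 1 in shNC differentiation, 0 in shPerk differentiation and 1 in P19 cells. With an assumed coefficient of variation of 0.4, 0 members were called in the knockdown at day 3 and in either differentiation. In P19 cells a filter of 10 RPM, which leaves out miR-145a-3p, or a prior count of 2 left 1 member called. Signs turned, with library totals and upper quartile factors in turn, for miR-143-3p in the knockdown at day 3 (-0.12 and -0.083), for miR-143-5p (-0.12 and -0.20) and miR-145a-3p (-0.081 and -0.15) in the knockdown at day 0, and for miR-143-5p in shPerk differentiation (-0.18 and -0.011). With upper quartile factors alone, signs turned for miR-143-3p (-0.027) and miR-145a-5p (-0.24) with ATF4. These scalings shift every miRNA of a pair alike. In shNC differentiation 2 members, not 3, were called with the median of ratios, with upper quartile factors and at a coefficient of variation of 0.2, since miR-143-3p lost its call. The other counts of called members did not change, and 195 of 221 recomputed single values kept their direction and their side of the limit or moved little. Filters and assumed coefficients of variation leave the fold change itself as it was. Many of the 221 values could therefore not change direction, and their number is no measure of robustness.

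Over all miRNAs, calls with an assumed coefficient of 0.4 numbered 46, not 241, in the knockdown at day 3, 56, not 208, at day 0, 7, not 154, in shNC differentiation and 1, not 168, in shPerk differentiation. With a coefficient of 0.2 the differentiation counts were 96 and 104. A minimum of 10 CPM or RPM left 130 calls in the knockdown at day 0, 91 and 105 in differentiation and 84, not 137, with ATF4, where a prior count of 2 left 86. With library totals, calls were 83 higher and 160 lower in the knockdown at day 3 in place of 115 and 126, 73 and 129 at day 0 in place of 99 and 109, 48 and 129 in shNC differentiation in place of 89 and 65, 48 and 150 in shPerk differentiation in place of 96 and 72, and 44 and 245 in P19 cells in place of 119 and 122. With at least 100 reads on each arm, 63 hairpins remained and miR-145a and miR-143 had the 4th and 7th lowest changes at day 3 of knockdown. Of the 5 miRNAs nearest to miR-145a-5p, 3 were the same at a minimum mean of 100.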
